A study of Mus musculus with 20 samples.

Results

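The knockdown of HPRT was compared with its control in the second part of a 14-day differentiation, on days 8, 10, 12 and 14. Of the 20 libraries of the series, the 8 labelled with these days entered, 4 from each line. Mouse ESD3 embryonic stem cells (strain 129s2/SvPas), which grow on feeder fibroblasts of mouse embryos, expressed an shRNA (short hairpin RNA) directed against luciferase in the control and against HPRT in the knockdown, each delivered by a viral vector. The methods of the study give the human gene as the target of the HPRT hairpin. Both lines were grown as spherical neural masses, which are floating aggregates of neural precursors, and were differentiated toward dopaminergic neurons. A line stood for 1 hairpin, and 1 RNA-seq library was made per line and day from pooled RNA, so that the 4 days served as the repeats. Errors below are standard deviations over these 4 days. The day was the pair, since both lines were collected on it, and the value compared was the log2 ratio of the knockdown over the control within the table of that day. Tests asked whether the ratio held over the days, and what belongs to the hairpin and what belongs to the line cannot be told apart.

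HPRT (hypoxanthine guanine phosphoribosyltransferase) returns hypoxanthine and guanine to the purine nucleotide pool, and its loss causes Lesch-Nyhan disease, in which basal ganglia dopamine is low. In the neural tube, precursors are patterned by factors of dorsal and ventral domains and then leave the cell cycle, first as neurons under proneural factors and later as glia. Oligodendrocyte precursors arise under Olig2, Nkx2-2 and Sox10, and on maturing they switch on the genes of the myelin sheath.

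Knockdown was read from Hprt itself (Gene ID 15452, chromosome X, 50341314 to 50374836; all gene positions are on NCBIM37), which had ratios of -4.38, -3.79, -4.21 and -5.00 on days 8, 10, 12 and 14. The knockdown library thus held 4.81%, 7.23%, 5.39% and 3.12% of the control of the same day, and the lines did not overlap. The mean was -4.35 ± 0.50 (SD, n = 4 days). The exact sign-flip permutation test gave a two-sided p = 0.13, the smallest that 4 days allow, and limma gave an adjusted p of 0.00195.

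All genes were then tested. A gene entered when its typical log2 normalized count over the late tables was at least 4, which 13403 genes reached; the typical count was read from the rounding of the deposited values. By limma with Benjamini-Hochberg adjustment at 0.05, 4429 genes (33.0%) differed, 2344 higher in the knockdown (17.5%) and 2085 lower (15.6%). A mean difference of 1.5-fold or more was reached by 1768 of the higher and 1543 of the lower genes. Leaving out single days moved the count to between 1181 (without day 12) and 3898 (without day 8); it was 1884 without day 10 and 2298 without day 14. By size alone, 894 genes (6.67%) were at least 1.5-fold higher on each of the 4 days and 816 (6.09%) at least 1.5-fold lower. The median ratio of all genes lay between 0.0073 and 0.020 on the 4 days. Relative levels of the 8 libraries, given below on a log2 scale against the mean of the 8, were obtained by joining the tables of consecutive days. All 4 knockdown libraries lay above all 4 control libraries for 2318 genes (17.3%) and below them for 1495 (11.2%).

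The 12 highest ratios were led by genes of the oligodendrocyte lineage. Bcas1 (Gene ID 76960, chromosome 2, 170172491 to 170253345), a gene of newly formed oligodendrocytes, was at 7.25, 8.13, 5.89 and 6.59 on days 8, 10, 12 and 14. Its mean of 6.97 ± 0.95 (limma adjusted p 0.00228) is a 125-fold difference. The control libraries stood at -5.07, -4.09, -1.98 and -2.80 and the knockdown libraries at 2.18, 4.04, 3.92 and 3.79 in the order of the days, so that both lines were lowest on day 8 and the lines stayed apart on each day. Fa2h (Gene ID 338521, chromosome 8, 113869035 to 113917724), which hydroxylates the fatty acids of myelin lipids, had a mean of 6.77 ± 1.501, and Mag (Gene ID 17136, chromosome 7, 31684202 to 31699851), an adhesion protein of the inner myelin membrane, 6.73 ± 2.16. Gpr37l1, a glial receptor, followed at 6.58 ± 1.10, S100b, a calcium-binding protein of glia, at 6.53 ± 1.36, and Plxnb3, a semaphorin receptor, at 6.39 ± 1.09. The other six were 1190002H23Rik (5.98 ± 1.37), Gpr17 (5.88 ± 1.14), Gjc3 (5.86 ± 1.46), 9630013A20Rik (5.76 ± 1.63), Pllp (5.29 ± 1.40) and Mbp (5.27 ± 1.49). Of the 12, Bcas1, S100b, 1190002H23Rik, Gpr17, Gjc3 and Mbp reached a typical log2 count of 8. Fa2h, Mag, Gpr37l1, Plxnb3, 9630013A20Rik and Pllp lay between 4 and 8 and were not tested at the stricter filter. For each of the 12 the lines did not overlap, and each was called also when any single day was left out. The 12 were picked from the same 8 libraries as the largest ratios among called genes, so neither adds support.

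**Figure D1:**
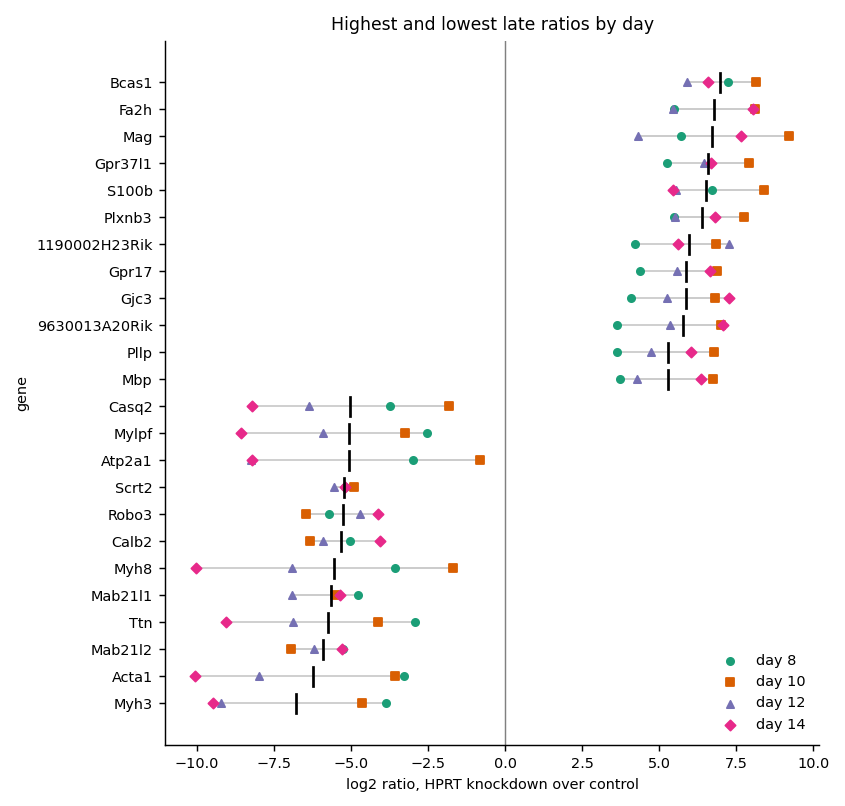
Log2 ratio of the HPRT knockdown over the control for the 12 highest and the 12 lowest genes named by the rule, 1 symbol per day and a black bar at the mean. The ratios of the 12 highest genes are all above 0, up to 9.22 for Mag on day 10, and the muscle genes among the 12 lowest spread widely, as Acta1 from -3.29 on day 8 to -10.06 on day 14.

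The factors of the oligodendrocyte lineage were higher as a group. Of the 20 listed genes, all past the filter, 17 were higher and none lower, against 17.5% and 15.6% of all genes. The median of their mean ratios was 3.91, beside 0.018 for all genes tested, and the list medians by day were 3.20, 4.89, 3.87 and 3.94. Olig2 (Gene ID 50913, chromosome 16, 91225795 to 91228922), the basic helix-loop-helix factor that specifies the lineage, had control levels of -2.26, -2.36, -1.96 and -1.94 and knockdown levels of 1.10, 2.69, 2.49 and 2.23. Its ratio of 4.26 ± 0.70 (limma adjusted p 0.00283) was a 19.2-fold difference, smallest on day 8 at 3.36. Its neighbor Olig1 (Gene ID 50914, chromosome 16, 91270014 to 91272184) was at 3.16 ± 0.67. Nkx2-2 (Gene ID 18088, chromosome 2, 147003282 to 147019979), the homeodomain factor of ventral progenitors and differentiating oligodendrocytes, was at 4.11, 5.64, 4.96 and 5.55 on the 4 days. Sox10 (Gene ID 20665, chromosome 15, 78985343 to 78994920), which acts on myelin gene promoters, was at 3.11, 5.36, 4.85 and 6.56. Its control level fell by 1.56 from day 8 to day 14 while its knockdown level went up by 1.88. Cspg4, the NG2 proteoglycan of precursors, was at 3.80 ± 1.28, and Myrf, the factor of myelination, at 2.75 ± 1.48. Pdgfra, the growth factor receptor of precursors, was not called at 0.81 ± 0.67 (limma adjusted p 0.0725), nor was Zfp536 at 0.39 or St18 at -0.40. Zfp488 and Enpp6 had the largest means of the list, 7.13 and 7.11, but the tables disagreed on them by more than 0.1. The count of 17 was 14 without day 10 or day 12.

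Myelin genes followed the factors. Of 26 listed genes 20 passed the filter, 13 were higher (65%, beside 17.5% of all genes) and 1 lower (5%, beside 15.6%). Their median was 3.70, and by day it was 2.30, 4.49, 3.07 and 4.90. Mbp (Gene ID 17196, chromosome 18, 82644538 to 82755029), myelin basic protein, stood at -2.88, -3.38, -1.43 and -2.86 in the control and at 0.83, 3.36, 2.87 and 3.49 in the knockdown libraries, with ratios of 3.71, 6.74, 4.30 and 6.35 (limma adjusted p 0.00607). The 4 control libraries of Mbp were all lower than the 4 knockdown libraries, and the control library of day 12 was the highest of its line. The same held for Mag, with control levels of -4.17, -5.05, -0.96 and -3.27 and knockdown levels of 1.55, 4.17, 3.34 and 4.397. Cnp was at 3.88 ± 1.05, the tight junction gene Cldn11 at 3.27 ± 0.43, the galactolipid enzyme Ugt8a at 3.52 ± 1.57 and transferrin (Trf) at 5.14 ± 0.73. Mog and Mobp, which come late in myelination, were not called at 1.19 ± 1.05 and 1.56 ± 2.22. The gene that was lower, Cntn2 (-3.71 ± 0.37), is an adhesion molecule that axons carry as well. From day 8 to day 14 the median level of the list moved by 0.02 in the control and by 2.34 in the knockdown. Without day 12, 10 members were higher. The libraries were made from whole cultures, so more cells of a type and more RNA per cell cannot be told apart.

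Sox10 and part of the myelin genes are also used by Schwann cells. Of 12 Schwann cell and neural crest markers in the tables, 11 were tested. Of these 5 were higher (45.5%, beside 17.5% of all genes) and 1 lower (9.09%, beside 15.6%). Prx at 0.08, Egr2 at 0.29 and Pmp22 at -0.08 were not called. The lower one was Ngfr (-0.62 ± 0.31), and the higher ones were Sox10, Erbb3 (1.92 ± 0.77), Dhh (2.01 ± 1.42), Mitf (1.32 ± 0.46) and Ets1 (0.85 ± 0.25). The median levels of the list ranged from -0.59 to -0.10 in the control and from 0.20 to 0.55 in the knockdown, and the part of these markers in the result was not tested. Without day 12, 2 were higher.

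**Figure D2:**
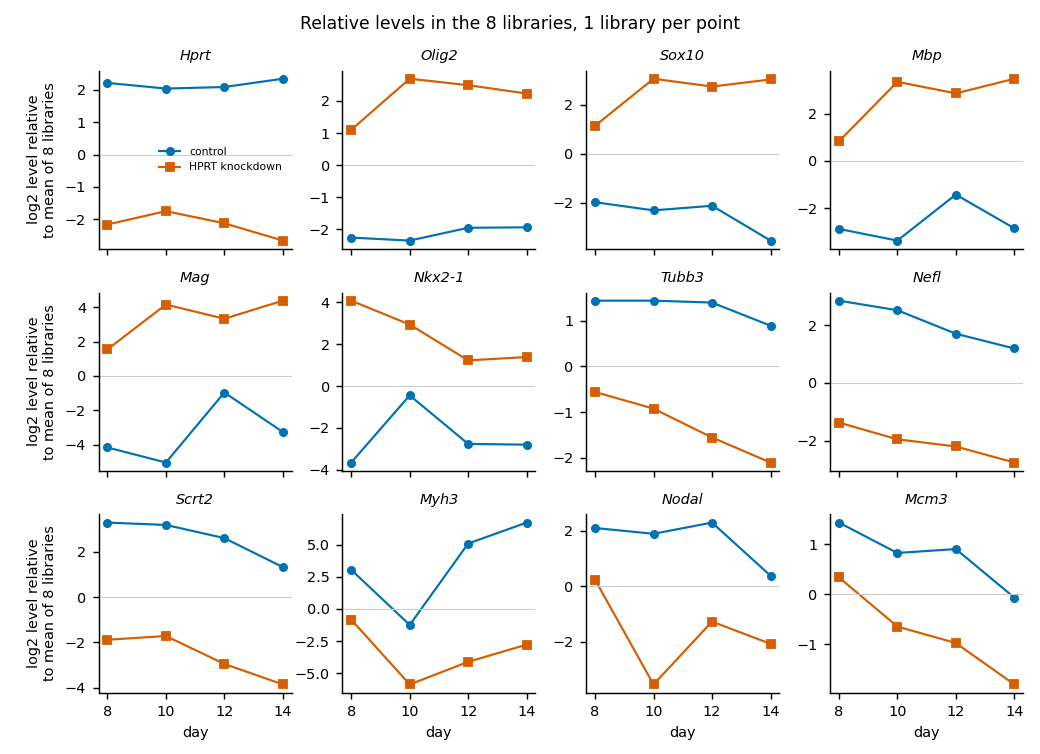
Log2 level of 12 genes in each of the 8 libraries, relative to the mean of the 8, against day, with 1 library per point and lines joining the days of the control and of the HPRT knockdown line. Mbp in the knockdown goes from 0.83 on day 8 to 3.49 on day 14, while Tubb3 in the knockdown goes from -0.56 to -2.10 and Myh3 in the control from 3.04 to 6.71.

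Genes of astrocytes and radial glia were higher by a smaller margin. All 30 were tested, with a median of 0.72. Of these 17 were higher (56.7%, beside 17.5% of all genes) and 2 lower (6.67%, under the 15.6% of all genes). Fgfr3, a receptor of glial precursors, was at 2.57 ± 0.43 and Ntsr2, a receptor of astrocytes, at 2.21 ± 0.34; S100b, given above, is shared with oligodendrocytes. Gfap, the astrocyte filament, was higher at 0.996, 2.63, 1.70 and 1.73 (limma adjusted p 0.0114) and Aqp4, the water channel of astrocyte endfeet, at 1.13, 1.76, 1.77 and 1.28 (limma adjusted p 0.00536). Slc1a3, a glutamate transporter, was not called at 0.39 ± 0.32 (limma adjusted p 0.103). Hes5, a Notch target that maintains progenitors, was lower at -3.26, -1.66, -1.24 and -0.81, and Gja1, connexin 43, was lower at -0.78 ± 0.32. In both lines the median level of the list went up by 0.70 from day 8 to day 14. Without day 12, 8 members were higher, without day 10 or day 14, 11, without the day as a pair, 10, and without the filter on level, 11.

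Neuronal genes were lower. Of 28 genes of the neuronal cytoskeleton and of neurite growth, 20 were lower (71.4%, beside 15.6% of all genes) and 2 higher (7.14%, beside 17.5%). Their median was -1.27, and the medians by day were -1.20, -1.46, -1.35 and -1.17. Tubb3 (Gene ID 22152, chromosome 8, 125935324 to 125945915), the neuronal tubulin, stood at 1.43, 1.44, 1.39 and 0.89 in the control and at -0.56, -0.93, -1.56 and -2.10 in the knockdown. Its ratios of -1.997, -2.36, -2.95 and -2.99 gave a limma adjusted p of 0.00352. Both lines lost Tubb3 over the days, by 0.55 in the control and by 1.54 in the knockdown. Nefl (Gene ID 18039, chromosome 14, 68701920 to 68707152), the light neurofilament, was at -4.22, -4.47, -3.90 and -3.95 and Ina, internexin, at -3.25, -3.94, -3.57 and -4.14; the 4 days of each lay within 1 log2 unit. Rbfox1, a splicing factor of neurons, was at -4.27, but its tables disagreed by 1.51. The 2 members that were higher were Prph, peripherin, at 1.12 ± 0.56 and Ncam1 at 0.44 ± 0.20. Gap43, the growth cone protein, was not called at 0.37 ± 0.33. Without day 12, 13 members were lower and, as without day 10, none was higher.

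Genes of synaptic vesicles and of release were less uniform, with a median of -0.58. Of 34, 13 were lower (38.2%, beside 15.6% of all genes) and 3 higher (8.82%, under the 17.5% of all genes). On day 8 the median was -0.050, and on the later days it was between -0.71 and -0.60. Slc17a6 (Gene ID 140919, chromosome 7, 58877200 to 58926495), the vesicular glutamate transporter of subcortical neurons, was at -2.23, -3.82, -5.35 and -4.74, and Slc32a1 (Gene ID 22348, chromosome 2, 158436494 to 158441484), the vesicular transporter of GABA and glycine, was at -2.32, -2.88, -3.84 and -3.40. Control levels of Slc17a6 were 1.95, 2.03, 2.25 and 1.84 and knockdown levels -0.28, -1.79, -3.10 and -2.90, a drop within the knockdown line. Syt11 was higher at 1.17 ± 0.51, Syn2 at 0.86 ± 0.44 and Syngr3 at 0.58 ± 0.16. The count of lower genes was 6 without day 10, 4 without day 12 and 7 without day 14; none was higher without day 10 or day 12, and 1 was without the day as a pair.

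Receptors and enzymes of transmitters moved in both directions. Of 33 tested, 9 were higher (27.3%, beside 17.5% of all genes) and 11 lower (33.3%, beside 15.6%). Their median was 0.09, and its sign was not stable, at -0.14 without day 8 and 0.0010 without day 14. The lower side held Chrna3 (-4.401 ± 0.84) and Chrnb2 (-2.59 ± 0.44), subunits of the neuronal nicotinic receptor, and Gad2 (-2.88 ± 0.61), which makes GABA. The higher side held Gabrg1 (2.97 ± 0.53), a GABA-A receptor subunit, Htr3a (1.78 ± 0.71), a serotonin-gated channel, and Grin3a (1.62 ± 0.76), a glutamate receptor subunit whose tables disagreed by 0.22. Without day 12, 4 members were higher and 6 lower, and without day 10, 5 were higher.

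Proneural and neurogenesis factors were lower. Of 24 tested, 15 were lower (62.5%, beside 15.6% of all genes) and 2 higher (8.33%, beside 17.5%), with a median of -1.54. Nhlh2 (Gene ID 18072, chromosome 3, 101814068 to 101819415) was at -4.98, -4.58, -4.95 and -4.397 and Nhlh1 at -3.92, -4.50, -4.08 and -3.33, both helix-loop-helix factors of new neurons. Neurog1 (Gene ID 18014, chromosome 13, 56351866 to 56353524), the proneural factor of sensory and dorsal neurons, stood at 3.26, 2.94, 1.798 and 0.39 in the control and at -1.57, -2.22, -2.37 and -2.22 in the knockdown. Its control level fell by 2.87 between day 8 and day 14, and its ratio was smallest in size on day 14 at -2.62. Dlx1 at 1.85 ± 0.63 and Dlx2 at 1.68 ± 0.92, factors of ventral forebrain interneurons, were the members that were higher. Scrt2 (Gene ID 545474, chromosome 2, 151907265 to 151921538), a zinc finger repressor of new neurons that is on none of the lists, had the least spread of the 12 lowest genes, at -5.18, -4.91, -5.56 and -5.19 (limma adjusted p 0.00123). Others of these 12 were Mab21l2 (-5.92 ± 0.82), Mab21l1 (-5.63 ± 0.91), the calcium-binding Calb2 (-5.32 ± 1.003) and the axon guidance receptor Robo3 (-5.25 ± 1.04).

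Among factors of dorsal domains of the neural tube, 10 of 18 tested were lower (55.6%, beside 15.6% of all genes) and 4 higher (22.2%, beside 17.5%). Their median was -1.08. Tlx1 was lower at -2.34 ± 0.89, while Msx1 at 2.05 ± 1.16, Lmx1a at 1.64 ± 0.53 and Bmp7 at 0.97 ± 0.41 were higher. Pou4f2 was at -5.82, with tables that disagreed by 0.23. Pax7 lay under the filter, at -5.16, -4.37, -4.72 and -5.80 without a test. Without day 12, 2 members were higher and 4 lower, and without day 10, 2 and 5. Of 19 factors of ventral domains and the hypothalamus, 9 were higher (47.4%, beside 17.5%) and 4 lower (21.1%, beside 15.6%). The median of their mean ratios was 1.14, and the list medians by day were 0.59, 0.62, 1.07 and 0.60. Nkx2-1 (Gene ID 21869, chromosome 12, 57632922 to 57637895), the factor of the ventral forebrain and hypothalamus, stood at -3.65, -0.44, -2.76 and -2.80 in the control and at 4.09, 2.94, 1.23 and 1.39 in the knockdown. Its ratio was highest on day 8 at 7.74 and was 3.39, 3.99 and 4.19 later (limma adjusted p 0.0120); the knockdown level fell by 2.70 over the 4 days. Not all ventral genes followed it. Dbx1, of the middle of the tube, was lower at -4.37, -4.82, -5.10 and -4.30, and Gli1, a target of sonic hedgehog, was lower at -0.29, -1.94, -1.88 and -1.81. Otp, a factor of hypothalamic neurons, was at -6.34, -5.54, -6.26 and -6.14, with tables that disagreed by 0.80. Without day 12, 3 ventral factors were higher and 2 lower, without day 10, 4 and 2, without day 14, 6 and 2, and without the filter on level, 5 and 2.

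The cultures were directed to a dopaminergic fate. Of the 28 listed genes, 24 were tested, 9 were higher (37.5%, beside 17.5% of all genes) and none lower, with a median of 0.33. Among them were genes of the floor plate, Corin at 4.57, 2.005, 1.95 and 3.13, Foxa1 (Gene ID 15375, chromosome 12, 58641618 to 58647108) at 3.74, 1.95, 2.50 and 2.51 and Lmx1a at 2.40, 1.42, 1.17 and 1.57, of which Foxa1 is also on the ventral and Lmx1a on the dorsal list. Aldh1a1, of ventral midbrain dopamine neurons, was higher at 2.11 ± 1.17 and Ddc, the decarboxylase that makes dopamine, at 1.92 ± 0.96; Drd1a, Bdnf and Maoa were higher as well. Th (Gene ID 21823, chromosome 7, 150078657 to 150117033), tyrosine hydroxylase, was not called. Its control levels were 1.85, 1.05, 0.45 and -1.32 and its knockdown levels 1.28, -1.18, -1.77 and -0.35, and the ratios of -0.57, -2.23, -2.22 and 0.96 changed sign on day 14. The factors Otx2 (-1.16 ± 1.12), Lmx1b (-1.35 ± 1.15), Nr4a2 (-0.27 ± 0.49) and En1 (0.17 ± 0.44) were not called. Slc6a3, the dopamine transporter, Pitx3 and Drd2 lay under the filter, so defining markers of mature dopamine neurons were low over these libraries; the ratios of Slc6a3 were 5.07, 3.15, 1.35 and 2.25, all above 0 and without a test, with tables that disagreed by 0.26. Without day 8, 7 members were higher and 4 lower.

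**Figure D3:**
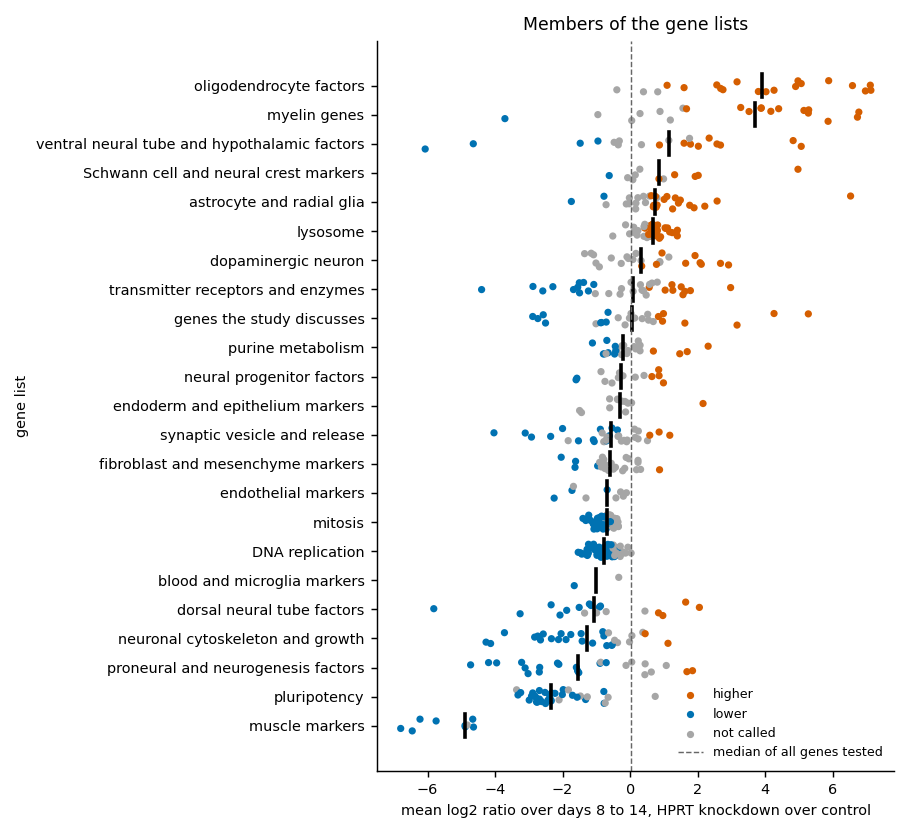
Mean log2 ratio over days 8, 10, 12 and 14 of each tested member of the 23 gene lists, colored by the limma call, with a black bar at the median of each list and a dashed line at the median of all genes tested, 0.018. Medians run from -4.89 for muscle markers to 3.91 for oligodendrocyte factors.

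Of the progenitor factors 4 of 14 were higher (28.6%, beside 17.5% of all genes) and 2 lower (14.3%, beside 15.6%), with a median of -0.27 that was -0.12 without day 8 and -0.16 without day 10. Sox2 (Gene ID 20674, chromosome 3, 34548927 to 34551383), kept by neural stem cells and glial precursors, was at 0.21, 1.12, 1.05 and 1.57 and was called (limma adjusted p 0.0316); its control level fell by 1.26 over the days while the knockdown level moved by 0.10. Pax6, of the dorsal and middle neural tube, was lower at -1.60 ± 0.77 and Dach1 at -1.58 ± 0.31. None was higher without day 10, day 12 or day 14, 2 were without day 8, and 1 was without the filter on level.

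Pluripotency genes were lower, with 27 of 35 tested lower (77.1%, beside 15.6% of all genes) and none higher and a median of -2.35. Day 10 stood apart, with list medians of -1.18, -4.36, -2.07 and -1.74 on the 4 days. Pou5f1 (Gene ID 18999, chromosome 17, 35642982 to 35647721) showed it, with control levels of 1.82, 1.42, 1.58 and 0.19 and knockdown levels of 0.48, -3.58, -0.34 and -1.58; its ratio was -5.00 on day 10 and between -1.91 and -1.34 on the others. Pou5f1 and Nanog have close copies elsewhere in the genome, and reads could be split between them. Nodal (Gene ID 18119, chromosome 10, 60880720 to 60888086), the ligand that keeps the state, was at -1.86, -5.42, -3.56 and -2.45, Lefty2, its inhibitor, at -1.38, -5.95, -3.06 and -2.58, and Nanog at -1.43, -4.89, -2.46 and -2.78. Tbx3 was the 1 tested member with a mean above 0, at 0.74 ± 0.90, and was not called. The median level fell in both lines from day 8 to day 14, by 1.69 in the control and by 2.35 in the knockdown. Without day 12, 3 members were lower, without day 14, 10, and without the filter on level, 12 of 37.

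Genes of DNA replication and mitosis were lower in the knockdown on the same days. Of 53 replication genes 39 were lower (73.6%, beside 15.6% of all genes) and none higher. Their median was -0.77, and the medians by day were -0.62, -0.47, -1.11 and -0.95. Of 49 mitosis genes 29 were lower (59.2%, beside 15.6%) and none higher, with a median of -0.69, and all 49 means were below 0. Without the filter on level, 13 mitosis genes were lower. Mcm3 (Gene ID 17215, chromosome 1, 20793055 to 20810359), a subunit of the replicative helicase, stood at 1.43, 0.82, 0.90 and -0.07 in the control and at 0.34, -0.64, -0.97 and -1.80 in the knockdown, so that the lines overlapped while the ratio of each day was below 0, at -1.09, -1.47, -1.87 and -1.73. Dna2 was at -1.48 ± 0.40, Pole2, of the leading-strand polymerase, at -1.43 ± 0.45, Bub1 (Gene ID 12235, chromosome 2, 127626858 to 127657601), a kinase of the spindle checkpoint, at -1.40 ± 0.52, and separase (Espl1) at -1.32 ± 0.20. Both lists fell with time in both lines, replication by 1.14 in the control and by 1.41 in the knockdown, mitosis by 1.11 and by 1.66. Without the day as a pair, 5 replication and 3 mitosis genes were lower, without day 12, 14 and 5, and without day 14, 21 and 8; mitosis had 13 without day 10.

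Replication genes are known targets of E2F factors and mitosis genes of NF-Y, and promoter windows of members of both lists are shown. A window ran from 250 bases before to 50 bases after a RefSeq start (GRCm38.p6, a later build than that of the gene positions above), and 44 of the 53 and 40 of the 49 genes matched. The letters GGCGGGAA, a core of E2F sites, were sought on both strands and were found in 10 of 54 windows of replication genes (18.5%), in 1 of 43 of mitosis genes (2.33%), in 3.94% of the windows of all genes tested and in 2.19% of all 32851 windows. The letters CCAAT, which NF-Y binds, were found in 28 of 54 windows of replication genes (51.9%), in 32 of 43 of mitosis genes (74.4%) and in 37.4% of all windows. Windows of all genes called lower held the E2F letters in 4.34% and CCAAT in 36.8%, beside 3.94% and 37.4% for all genes tested. The larger share of the E2F letters thus belongs to the replication list alone and that of CCAAT to both lists. Neither belongs to lower genes at large. The called members with the largest ratios that held the letters are given below, 5′ to 3′ on the strand of the gene, with the E2F letters in capitals in Mcm3 and Uhrf1 and the CCAAT letters in capitals in Bub1, on either strand: Mcm3 (chr1:20820263-20820562, minus strand), Uhrf1 (chr17:56303087-56303386, plus strand; mean ratio -1.25) and Bub1 (chr2:127831810-127832109, minus strand).
Mcm3: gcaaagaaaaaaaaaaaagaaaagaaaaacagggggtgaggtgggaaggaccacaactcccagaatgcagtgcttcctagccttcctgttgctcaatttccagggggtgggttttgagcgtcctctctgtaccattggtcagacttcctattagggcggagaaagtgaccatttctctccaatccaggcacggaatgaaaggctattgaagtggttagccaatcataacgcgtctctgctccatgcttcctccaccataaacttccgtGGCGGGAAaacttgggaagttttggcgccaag
Uhrf1: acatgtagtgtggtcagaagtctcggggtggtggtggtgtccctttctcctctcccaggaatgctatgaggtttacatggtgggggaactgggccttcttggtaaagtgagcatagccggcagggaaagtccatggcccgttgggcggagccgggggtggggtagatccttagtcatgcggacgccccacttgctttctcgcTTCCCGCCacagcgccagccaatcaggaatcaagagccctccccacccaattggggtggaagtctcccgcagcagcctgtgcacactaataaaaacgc
Bub1: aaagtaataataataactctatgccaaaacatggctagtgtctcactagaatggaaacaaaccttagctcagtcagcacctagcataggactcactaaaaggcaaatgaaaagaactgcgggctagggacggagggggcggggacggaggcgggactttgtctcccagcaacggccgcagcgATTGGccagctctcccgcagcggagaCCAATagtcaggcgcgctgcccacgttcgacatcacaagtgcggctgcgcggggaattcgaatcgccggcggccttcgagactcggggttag
CCAAT and its reverse complement stand in all 3 windows, and in those of Mcm3 and Uhrf1 they are left in lower case. A match describes the letters only, and binding was not measured.

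Lysosomal genes were higher by a small and even margin. Of 52 tested, 38 were higher (73.1%, beside 17.5% of all genes) and none lower. Their median was 0.67, and the medians by day were 0.65, 0.57, 0.64 and 0.73. Naglu (Gene ID 27419, chromosome 11, 100931326 to 100938986), which degrades heparan sulfate, stood at -0.73, -0.78, -0.76 and -0.52 in the control and 0.33, 0.54, 0.72 and 1.19 in the knockdown, without overlap. Gm2a, the GM2 activator, was at 1.39 ± 0.50 and Arsb at 1.35 ± 0.42, while Manba at -0.52 ± 0.57, Ids at -0.14 ± 0.34 and Ctsh at -0.02 ± 1.16 were the 3 tested members with means below 0, none of them called. Without day 12, 9 members were higher.

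Around HPRT itself, 4 of 24 genes of purine metabolism were higher (16.7%, near the 17.5% of all genes) and 8 lower (33.3%, beside 15.6%), with a median of -0.22 that was -0.098 without day 8. Prps1 (Gene ID 19139, chromosome X, 136991152 to 137010679), which makes the phosphoribosyl pyrophosphate that HPRT uses, was lower at -1.20, -0.999, -1.17 and -1.10, and its lines did not overlap. Adsl, of de novo synthesis, was at -0.76 ± 0.28 and Nt5c2, a nucleotidase that acts on IMP and GMP, at -0.79 ± 0.50. Higher were Ampd3, an AMP deaminase, at 2.31 ± 0.96, Nt5e, which makes adenosine outside the cell, at 1.69 ± 0.37, and guanine deaminase (Gda) at 1.47 ± 1.06. Lower counts were 1 without day 10, 2 without day 12 or day 14, 4 without day 8 and 3 without the day as a pair; higher counts were 1 without day 12 and 2 without day 10 or day 14.

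Muscle genes had the lowest ratios of all lists. Of 16 listed genes 9 passed the filter and 8 were lower (88.9%, beside 15.6% of all genes). Their median was -4.89, and the medians by day were -2.61, -2.70, -6.87 and -9.14. Myh3 (Gene ID 17883, chromosome 11, 66891802 to 66915793), embryonic myosin, stood at 3.04, -1.24, 5.09 and 6.71 in the control and at -0.83, -5.87, -4.11 and -2.77 in the knockdown. Acta1 (Gene ID 11459, chromosome 8, 126415669 to 126418651), skeletal actin, stood at 1.65, -1.80, 4.79 and 7.81 and at -1.65, -5.36, -3.19 and -2.25. In both genes the control was lowest on day 10 and highest on day 14, and the lines overlapped through day 10 of the control. Of the 12 lowest genes, Myh3, Acta1, Ttn (-5.75 ± 2.76), Myh8 (-5.56 ± 3.68), Atp2a1 (-5.06 ± 3.76), Mylpf (-5.06 ± 2.75) and Casq2 (-5.04 ± 2.82) are genes of the sarcomere or of its calcium store. Myog, Myod1 and Myf5, the factors that define skeletal muscle, lay under the filter. From day 8 to day 14 the median level of the list went up by 4.31 in the control and down by 1.77 in the knockdown. On days 1 to 4 the median of the mean ratios was already -4.76, beside -4.89 on the late days. Without the filter on level 2 of the 16 (Myh3 and Ttn) were called. Without day 12 none of the 9 tested markers was, and without day 10 or day 14, 4 were; of the 12 lowest genes 5 were called without day 12 and 7 without the filter.

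**Figure D4:**
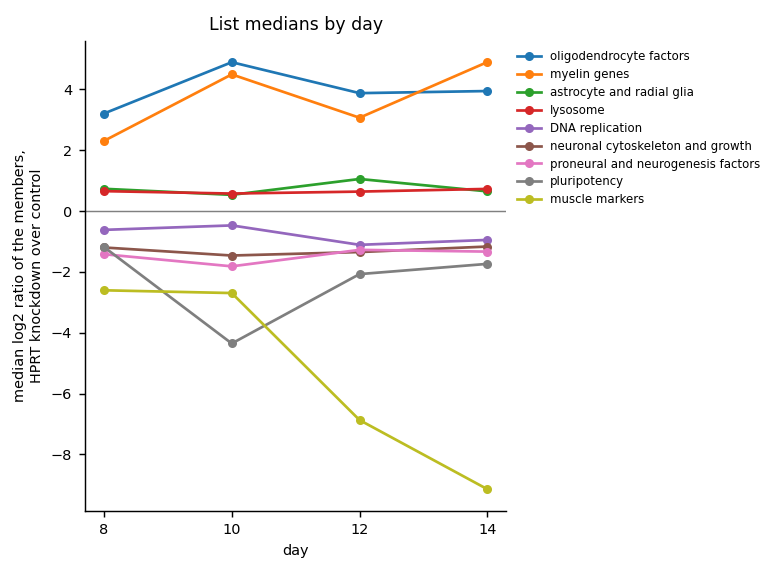
Median log2 ratio of the tested members of 9 gene lists on each of the 4 days, HPRT knockdown over control. Muscle markers go from -2.61 on day 8 to -9.14 on day 14, pluripotency genes are lowest on day 10, and lysosome genes stay between 0.57 and 0.73.

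Markers of other cells that such cultures can hold were read against the 17.5% of all genes that were higher and the 15.6% that were lower. Of 24 fibroblast and mesenchyme markers, the cells of the feeder layer, 1 was higher (Fbln2) and 4 lower (Lum, Thy1, Fbln1 and Acta2; 16.7%), with medians by day of 0.53, -0.65, -1.10 and -0.92; Col1a1 was at -0.50 ± 1.04 and Col3a1 at -0.75 ± 0.90, not called. Without day 8, 14 of them were lower, and without day 10 or day 12, 1. Endothelial markers had means below 0 in all 9 and 3 of 9 lower (33.3%), Pecam1, Egfl7 and Eng (-2.25 ± 0.97), but none without day 12 or day 14, 1 without day 10 and 5 without day 8, and blood and microglia markers had 1 of 2 lower, Laptm5, with 13 of the 15 under the filter. Of 12 markers of endoderm and epithelium 1, Krt19, was higher at 2.16 ± 0.91. Median levels of the fibroblast list ranged from -0.53 to 1.24 in the control and from -0.73 to 0.23 in the knockdown. The part of these cells in the results above was not tested.

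Of the 32 genes that the study discusses, 27 were tested, 7 were higher (25.9%) and 8 lower (29.6%), beside 17.5% and 15.6% of all genes. Part of them, such as Jag2 and Cxcr4, the study named from this RNA-seq series, so the count is no independent evidence. Others it measured by different means, such as Sox2 and Tubb3 by qPCR and Mbp and Olig2 by Western blot. In its immunostaining of the final stage, the proteins beta-III tubulin (Tubb3) and tyrosine hydroxylase (Th) were expressed to an equal degree in both lines. Beyond those above, Mapk3 was higher at 0.66, 0.97, 0.85 and 1.35 and P2ry1, a receptor of ADP, at 1.23, 0.85, 0.85 and 0.42. The Notch ligand Jag2 was lower at -1.11, -0.58, -1.01 and -0.79, the Notch modifier Dtx4 at -0.83, -1.20, -0.39 and -0.42, the receptor Tgfbr1 at -0.93, -0.58, -0.56 and -0.56, and the chemokine receptor Cxcr4 at -0.89, -1.66, -0.56 and -0.30. Among those not called, Notch2, Lfng, Maml2, Cxcl12, Tgfb2, Tgfb3, Hdac1 and Hdac2 had means between -0.36 and 0.68. Without day 12, 3 were higher and 2 lower, without day 10, 4 and 5, without day 14, 4 were lower, and without the day as a pair 5 were.

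The late ratios were set against those of days 1, 2, 3 and 4. By limma on the 8 days, the late ratio was above the early one for 118 of 13422 genes (0.879%) and below it for 198 (1.48%), and for 180 of these 316 genes the 2 means had opposite signs. The count depended on single days: it was 0 without day 10 or day 12, 1 without day 2, 5 without day 1, 55 without day 14, 90 without day 4, 284 without day 3 and 1194 without day 8. The balance of directions was not stable either. Without day 3, 165 were above and 119 below, and at a log2 count of at least 8, 240 and 243. The count was also 0 when day 6 was added to the early days, and 3382 genes of the main fit had an unadjusted p under 0.05. Among the differences above 0, Gpr17 (Gene ID 574402, chromosome 18, 32102651 to 32109290), a receptor of committed oligodendrocyte precursors, had early ratios with a mean of 0.57 ± 1.74 and late ratios of 5.88 ± 1.14, a difference of 5.31 ± 0.90 (SE, limma adjusted p 0.0363). Sox10 went from -0.34 ± 1.87 to 4.97 ± 1.43 (difference 5.30 ± 1.02, limma adjusted p 0.0446). Day 3 stood apart among the early days: Gpr17 was at -0.0087, -0.81, 3.11 and -0.013 on days 1 to 4, and on day 3 Sox10 was at 2.20, Mbp at 4.42, Mag at 5.46 and Bcas1 at 5.05, each its highest early ratio. They were followed by 5730559C18Rik (4.10), the complement gene C4b (3.92) and the protease inhibitors Serpina3n (3.85) and Serpina3f (3.68), the last 2 from a cluster of near-identical genes. Mbp and Mag had late minus early differences of 5.11 and 6.48 and were not called (limma adjusted p 0.0863 and 0.0873).

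Below 0, the somatostatin receptor Sstr2 (Gene ID 20606, chromosome 11, 113480656 to 113487319) went from 0.39 ± 0.58 to -3.02 ± 0.21 (difference -3.41 ± 0.28, limma adjusted p 0.0191). Pax8, a factor of spinal and hindbrain interneurons, differed by -4.28, A730017C20Rik by -3.77, the potassium channel Kcnc4 by -3.41, transglutaminase Tgm2 by -3.37 and the visceral neuron factor Phox2a by -3.33; Pax8 and Phox2a lay under the filter of the late days alone. Kcnc4 and Tgm2 had early means of 2.25 and 2.54, above 0, and late means of -1.16 and -0.83. Of the lists, the oligodendrocyte factors had 3 members above (Gpr17, Sox10 and Lhfpl3), and the neuronal cytoskeleton list had 4 below (Nefl, Nefm, Crmp1 and Gprin1) and 1 above (Prph). The dorsal list had 3 above (Pax7, Lbx1 and Barhl2) and 1 below (Phox2a), the transmitter list 3 below (Gria1 and Slc6a11 among them), the proneural list 1 above (Eomes) and 2 below (Hes6 and Sox11), and the astrocyte list 2 below (Sox9 and Pla2g7). The ventral, purine and Schwann cell lists had 1 above each, the synaptic and fibroblast lists 1 below each, and the other lists none. Above and below are said here of the late minus early difference and not of the late ratio. Pax7, for one, had late ratios below 0, and Eomes was called lower on the late days. Among all genes tested 0.879% were above and 1.48% below. None of these list calls held without day 10 or day 12. Medians of the mean ratios were 1.66 early and 3.91 late for oligodendrocyte factors, 0.31 and 3.70 for myelin genes, and 1.09 and 0.72 for astrocytes and radial glia. The early and late medians were -0.43 and -1.27 for the neuronal cytoskeleton, 0.60 and 0.67 for lysosome and -0.78 and -0.77 for DNA replication. For muscle markers they were -4.76 and -4.89, for pluripotency -2.90 and -2.35, for dorsal factors -1.56 and -1.08 and for ventral factors 1.61 and 1.14.

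**Figure D5:**
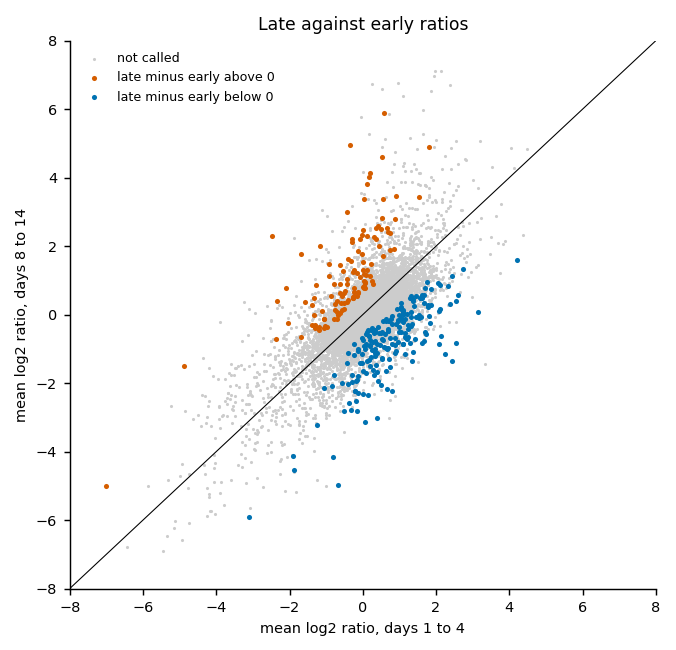
Mean log2 ratio of days 8 to 14 against that of days 1 to 4 for the 13422 genes tested, with genes called by limma for the difference in color and the line of equal ratios in black. The 118 genes above and 198 below the line in color lie on either side of the main cloud along it.

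Whether the ratio moved between day 8 and day 14 was tested by its slope on day. Limma called 0 of 13403 genes after adjustment, the smallest adjusted p being 0.206, and 1461 genes had an unadjusted p under 0.05. The fit had 2 residual degrees of freedom, and the courses over the days given above are values without a call.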

How the data were processed

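RNA-seq libraries of 4 control and 4 HPRT knockdown cultures of days 8, 10, 12 and 14 were compared, with days 1, 2, 3 and 4 as the earlier period. Per the study's methods and the submitters' processing notes, 50-cycle Illumina reads were aligned to mm9 (NCBI37) with ELAND (CASAVA 1.8.2), and gene values were made in Avadis NGS after normalization by DESeq. The authors deposited log2 values in 28 tables of 2 libraries, each centered on the mean of the pair and normalized separately, with a minimum of 1 normalized count, which understates ratios of low genes. Without read totals for the single libraries, which were not used, no counting intervals are given and depth per library is unknown. The use of strand is not given in the sources used here. No sequencing lane is given per library, so no batch could be examined.

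Ratios were the knockdown minus the control within the table of a day. A gene was tested when the rounding step of its single-precision values corresponded, in the median of the 10 late tables, to a log2 normalized count of at least 4. Tables of consecutive late days closed loops with a constant. Of 13403 genes, 432 left more than 0.1 and are not among the highest or lowest genes. The table of control days 3 and 4 did not close its loop with the others. It was left out of the level filter of the late minus early fit and did not enter the ratios. The fits were limma 3.58.1 (lmFit, eBayes) in R 4.3.3 with Benjamini-Hochberg adjustment, tested on simulated data. The day was the pair because both lines are labelled with it and the study's own pathway tests paired the lines within time points. Deviations of same-day libraries from their line means correlated across genes with r of 0.274, 0.025, 0.189 and 0.369 on the 4 days. For libraries of different days r ran from -0.406 to 0.108, so that the same-day value of day 10 lay within that range. Since each line was sampled on successive days, p-values measure only the spread between these samples. Named were the 12 highest and 12 lowest mean ratios among genes called, of the same sign on 4 of 4 days and with tables that agreed within 0.1, the 6 largest late minus early differences each way, the 4 steepest slopes each way among those called (none was), the genes the study discusses and the 3 largest members of each list on each side of 0; other list members were chosen for their known roles after their values were seen. Members and lists were chosen with earlier results of these data known. Alternatives were the filter, agreement of tables, centering, single days, the pairing, the prior and the early days. Gene positions are from GENCODE on NCBIM37, by symbol. Values of some genes are not reported here; counts over lists and named genes include them.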

Additional observations from a re-analysis of the deposited data

Results flagged for a closer look

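In 4 ratios, 1 day can stand far from the others: chance sets about 1 in 20 groups apart by Dixon's test, and 11 of 158 named genes and 2 of 23 lists were. Of the genes given here, day 8 was the far one for Tgm2 (ratio -0.038), Gli1 (-0.29), Tbx3 (2.10), Notch2 (0.79) and Tgfbr1 (-0.93), and for the median of the synaptic vesicle list (-0.050). Day 10 was the far one for Pou4f2 (-7.78), Pou5f1 (-5.00) and Hdac2 (0.16), day 12 for the median of the ventral and hypothalamic factors (1.068), and day 14 for Prph (1.95) and Manba (0.32).

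The late minus early difference itself passed limma's test for genes named in the report: Gpr17 (5.31), Sox10 (5.30), 5730559C18Rik (4.10), C4b (3.92), Serpina3n (3.85) and Serpina3f (3.68) above 0, and Pax8 (-4.28), A730017C20Rik (-3.77), Sstr2 (-3.41), Kcnc4 (-3.41), Tgm2 (-3.37) and Phox2a (-3.33) below 0. None of them was called without day 10 or day 12, since no gene was.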

How the results depend on the processing

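The count of 4429 genes differing on the late days ranged from 1181 to 3898 when single days were left out, and without the day as a pair (no replicate block) it was 3493; the other settings kept it within 1.5 times. The 316 late minus early calls became 129 without a filter, 483 at a log2 count of at least 8, 791 with day 0 and 0 with day 6 among the early days, and 0 to 1194 without single days. Genes at least 1.5-fold apart on each day numbered 1710, and 819 at a log2 count of at least 8. At that filter the list medians moved to 3.16 for oligodendrocyte factors, -1.11 for the neuronal cytoskeleton, 0.61 for transmitter receptors and enzymes, -0.89 for proneural factors, 0.33 for ventral and hypothalamic factors (3 genes), -1.78 for endothelial markers (2 genes), 0.059 for dopaminergic genes (6 genes) and -1.44 for endoderm and epithelium (3 genes). Without single days the neuronal cytoskeleton median was -1.41 to -1.17 and the ventral one 0.91 to 1.46. The sign turned for transmitter receptors without day 8 (0.087 to -0.14) and for endoderm without day 10 (-0.31 to 0.34; -0.84 without day 14). Without day 8 the median was -1.05 for fibroblast, -0.098 for purine and -0.12 for progenitor genes, without day 10 -0.55 for blood and microglia (2 genes), and without day 14 0.54 for Schwann cell markers; that of the genes the study discusses was 0.015 without day 12 and 0.022 without day 8. Slopes stayed at 0 calls in each setting, and the mean of Hprt stayed between -4.53 and -4.13. None of the 158 named genes tested changed direction where it was called; without day 12, 51 lost their call. The cause was not tested. Read totals per library were not used, and each line and day had 1 library.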
